A study of Rattus norvegicus with 15 samples.

Results

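The acute phase proteins of the liver were followed on 15 Affymetrix rat gene arrays, each of 1 microfluidic biochip of primary rat hepatocytes. The 10 genes named were Hp, Orm1, A2m, Crp, Saa4, Lcn2, Hpx, Cp, Itih4 and Hamp. They were taken by gene symbol from the platform annotation, and 9 of the 10 had a probe set of their own among the 14506 genes measured. The probe set annotated to Saa4, a constitutive serum amyloid A, also carried Hps5, so Saa4 was not analysed here. Each of the 9 measured genes had 1 probe set.

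Freshly isolated hepatocytes were left for 24 h to attach to collagen-coated biochips in medium with insulin and bovine serum, per the labels' protocols. They were then perfused at 25 µl/min, per the design text for 24 h, with a medium supplemented with insulin, transferrin and selenium. The control group received the solvent DMSO (n = 5 arrays) and the other 2 groups received flutamide, a non-steroidal antiandrogen known for liver injury, at 10 µM (n = 6) or 100 µM (n = 4). The sample titles number the biochips 10 to 16 (7 arrays, called run 1 here) and 20 to 27 (8 arrays, run 2), and each run holds all 3 groups. The labels do not give the rats' strain, sex or age, what the numbers stand for, or whether biochips came from separate animals, so the p-values measure the spread between these arrays, which may be technical.

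Acute phase proteins are plasma proteins that hepatocytes secrete in changed amounts during inflammation. Interleukin-6, released largely by macrophages, acts through STAT3, and interleukin-1 acts through NF-kB and C/EBP factors on the promoters of these genes. In the rat, alpha-2-macroglobulin and alpha-1-acid glycoprotein are strong responders, while C-reactive protein, a leading marker in man, changes little.

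The deposited log2 levels had array medians of 5.38 to 5.51, and array pairs correlated at 0.952 to 0.991. Array 23 (10 µM, run 2) correlated least with the rest (median r 0.967) and had a limma array weight of 0.205. Array 15 (100 µM, run 1) followed, with a median r of 0.971. Of 20 hepatocyte markers, 18 were measured and 1 of them lay below the median gene. Levels of different probe sets cannot be ranked against each other on this platform, so each gene is compared with itself across arrays. Cells were lysed in bulk, so fewer cells of a type and less RNA per cell cannot be told apart.

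No measured acute phase gene passed an adjusted p under 0.05 in any comparison of dose. Hamp, the iron hormone hepcidin, varied most among the 9, by 13.3-fold between its lowest and highest array, and 0.179% of the 14506 genes had a wider range. Lcn2 ranged over 6.47-fold and A2m over 3.46-fold. At the other end, Orm1 ranged over 1.36-fold and Hpx over 1.31-fold, and 89.9% of genes ranged more widely than Hpx. Without array 23 the range of Hamp was 6.98-fold and that of Lcn2 3.41-fold, while those of A2m and Hpx were as wide as before. That of Orm1 was then 1.25-fold, narrower than that of Hpx.

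**Figure D1:**
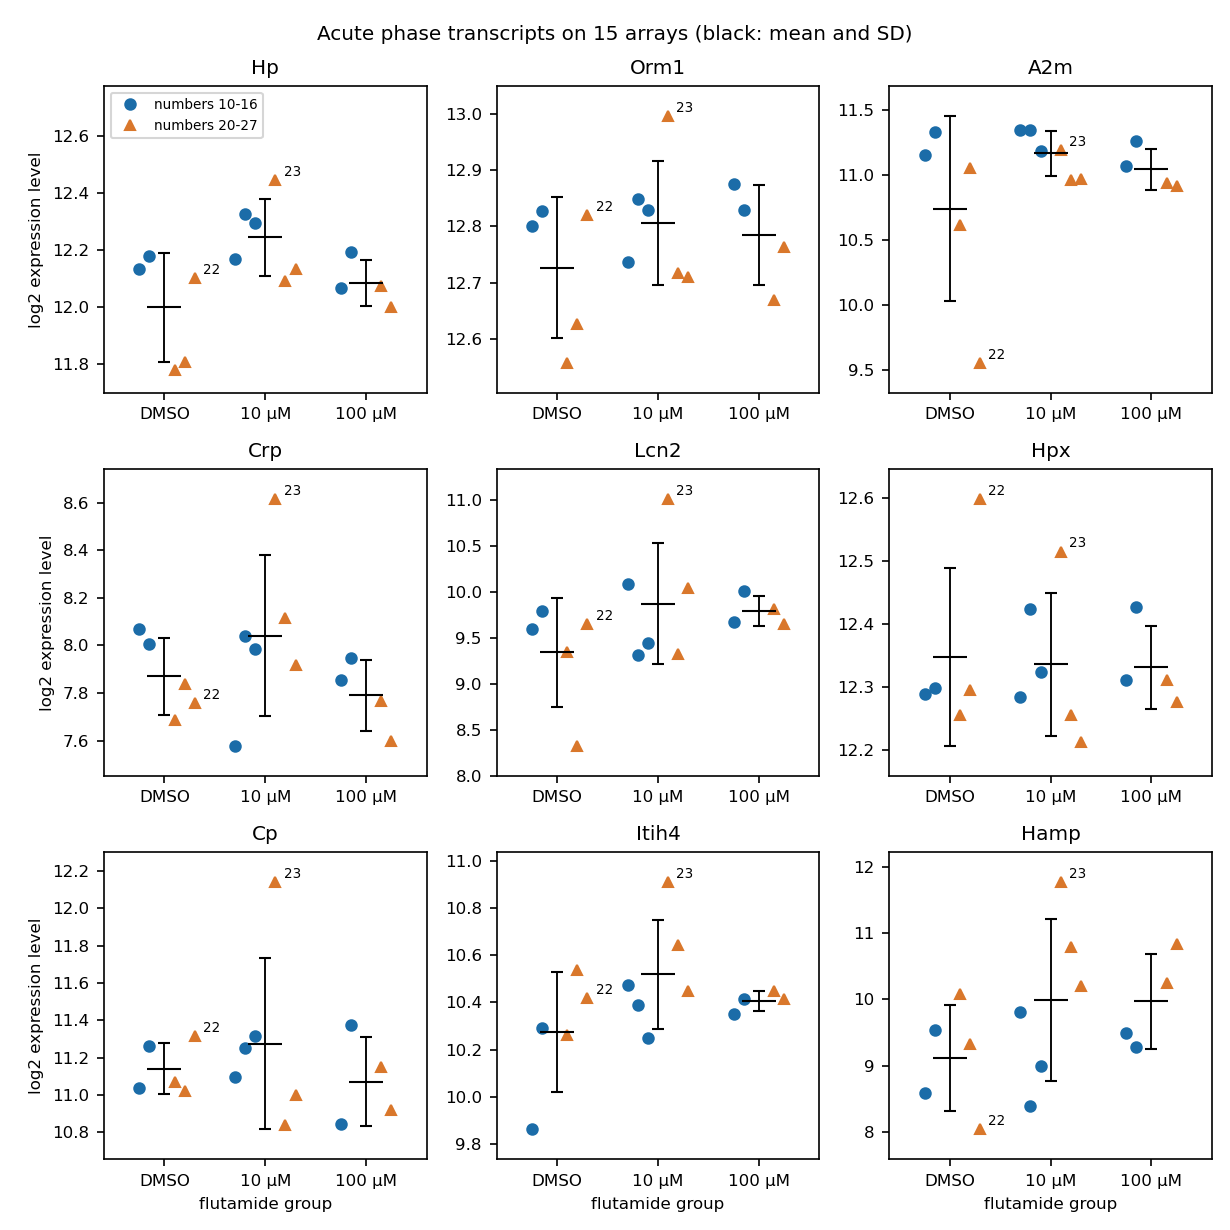
Log2 expression level of each of the 9 measured acute phase genes (vertical axes, scaled to each gene) on the 15 arrays, by flutamide group (horizontal axes). Circles are run 1, triangles run 2, black bars the group mean with its SD, and arrays 22 and 23 are labelled. In every panel the groups overlap. Array 23 is the highest array for 7 of the 9 genes, and array 22 the lowest for A2m and Hamp.

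Hepcidin is the peptide hormone that degrades the iron exporter ferroportin, and both iron load, through bone morphogenetic proteins, and interleukin-6 raise its transcript. Its log2 levels in run 1 were 8.59 and 9.53 with DMSO, 9.81, 8.38 and 9.0 at 10 µM, and 9.50 and 9.28 at 100 µM. In run 2 they were 10.08, 9.33 and 8.04 with DMSO, 11.77, 10.79 and 10.21 at 10 µM, and 10.25 and 10.84 at 100 µM. The 5 flutamide arrays of run 2 therefore all lay above the 3 DMSO arrays of that run, whereas the groups of run 1 overlapped.

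Over both runs Hamp was 0.99 log2 units higher at 10 µM than with DMSO (SE 0.44, 95% interval 0.05 to 1.92), which is 1.99-fold, with an unadjusted p of 0.0397 and a limma adjusted p of 0.629. At 100 µM the difference was 0.96 (SE 0.48, 95% interval -0.07 to 2.00, limma adjusted p = 0.755). Within run 1 the 10 µM difference was 0.0038 and within run 2 it was 1.77. At 100 µM it was 0.33 in run 1 and 1.40 in run 2. A test of the difference between runs gave 1.77 at 10 µM (SE 0.80, limma adjusted p = 0.484) and 1.07 at 100 µM (SE 0.88, limma adjusted p = 0.944), so the runs were not shown to differ in their response. The latter value was 0.51 without array 22 and 0.59 without array 11. The 10 µM difference within run 1 was -0.47 without array 10 and 0.48 without array 11, and that within run 2 was 1.22 without array 22. Without array 23 the 10 µM difference was 0.70 (95% interval -0.17 to 1.57), and without array 22, the lowest DMSO array, it was 0.61 (95% interval -0.18 to 1.40). The 100 µM difference was 0.59 without array 22, and 0.94 without array 23 (95% interval 0.03 to 1.86, unadjusted p 0.044, limma adjusted p = 0.531).

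Hamp also had the largest estimated difference between the runs among the 9 genes. It lay 1.09 log2 units higher in run 2 (SE 0.37, 95% interval 0.29 to 1.90), or 2.14-fold, with a limma adjusted p of 0.269. The DMSO arrays of both runs differed by 0.09 (0.64 without array 22), the 10 µM arrays by 1.86 (1.44 without array 23) and the 100 µM arrays by 1.16. Leaving out array 22 raised the overall run difference to 1.31 (SE 0.30).

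The promoters of Hamp, Itih4, Lcn2 and Orm1 are shown because they are the 4 matched windows that hold the letters of an NF-kB site, and 2 of them also hold those of a STAT site. The 250 bases before the annotated start are printed on the gene's own strand, from RefSeq assembly GRCr8, with motif matches in capitals. RefSeq promoters were matched for 7 of the 10 named genes (Hamp, Hpx, Cp, Lcn2, Orm1, Crp and Itih4). The windows shown are chr1:95300272-95300521 on the minus strand for Hamp, chr16:6086735-6086984 on the plus strand for Itih4, chr3:36081781-36082030 on the minus strand for Lcn2 and chr5:81788259-81788508 on the plus strand for Orm1.
Hamp: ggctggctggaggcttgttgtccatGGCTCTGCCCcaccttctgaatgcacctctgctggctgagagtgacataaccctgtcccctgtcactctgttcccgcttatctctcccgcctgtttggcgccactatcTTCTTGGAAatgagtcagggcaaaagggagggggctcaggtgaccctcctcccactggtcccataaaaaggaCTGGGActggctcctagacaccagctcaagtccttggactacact
Itih4: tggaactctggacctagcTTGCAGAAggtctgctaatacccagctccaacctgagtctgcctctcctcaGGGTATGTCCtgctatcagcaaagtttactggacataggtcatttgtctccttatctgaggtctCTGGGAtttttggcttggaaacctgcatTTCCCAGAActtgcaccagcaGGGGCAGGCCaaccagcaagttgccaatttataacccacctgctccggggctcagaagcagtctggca
Lcn2: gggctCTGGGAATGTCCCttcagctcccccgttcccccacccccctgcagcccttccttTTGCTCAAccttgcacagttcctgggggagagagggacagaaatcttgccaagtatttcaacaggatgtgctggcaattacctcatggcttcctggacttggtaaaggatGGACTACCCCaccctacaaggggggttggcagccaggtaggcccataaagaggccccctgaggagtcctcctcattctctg
Orm1: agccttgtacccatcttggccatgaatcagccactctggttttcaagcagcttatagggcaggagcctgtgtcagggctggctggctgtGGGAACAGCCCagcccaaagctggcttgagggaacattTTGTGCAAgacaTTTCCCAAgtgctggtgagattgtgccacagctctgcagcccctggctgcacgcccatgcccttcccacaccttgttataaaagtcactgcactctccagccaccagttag

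Both strands of each window were searched for TTCNNNGAA (the STAT pattern), TTNCNNAA (C/EBP), the NF-kB pattern (3 G, any 5 bases, 2 C) and CTGGGA (the core of the type 2 acute phase element), where N is any base. The STAT letters stood in 2 of the 7 windows, those of Hamp (TTCTTGGAA, 117 to 109 bases before the start) and Itih4 (TTCCCAGAA, 89 to 81 bases before it), against 7.67% of 33469 rat promoter windows of the same length. In Itih4 this match overlaps a CTGGGA match on the opposite strand. The C/EBP letters stood in 6 of the 7 windows, all but that of Hamp, against 37.2% of all. The NF-kB letters stood in 4 (Hamp, Lcn2, Orm1 and Itih4) against 42.3%, and in Lcn2 and Orm1 a pair of matches on opposite strands overlap. In Lcn2 a CTGGGA match overlaps that pair too. The CTGGGA core stood in 4 (Hamp, Lcn2, Crp and Itih4) against 25.7%. These matches are a description of the letters in the windows and no measure of binding.

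Lcn2 encodes lipocalin-2, which withholds iron from bacteria by binding their siderophores and is made by injured hepatocytes and by neutrophils. Its log2 levels were 9.60, 9.80, 9.35, 8.32 and 9.66 on the DMSO arrays. At 10 µM they were 10.09, 9.32 and 9.45 in run 1 and 11.02, 9.32 and 10.05 in run 2, and at 100 µM they were 9.68, 10.02, 9.82 and 9.66. Array 21 (DMSO, run 2) is the lowest and array 23 the highest, and the remaining arrays lie within one overlapping band.

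Lcn2 was 0.53 log2 units higher at 10 µM than with DMSO (SE 0.31, 95% interval -0.15 to 1.20, limma adjusted p = 0.750). Without array 23 the estimate was 0.26, and without array 21 it was 0.27. At 100 µM the difference was 0.45 (SE 0.35, limma adjusted p = 0.825), and without array 21 it was 0.19. Both outlying arrays thus moved the value by more than 1.5 times, and array 21 did so at both doses. Array 21 also held the highest log2 level of Il1b, the interleukin-1 beta gene, at 7.75, against 5.15 to 6.80 on the other arrays. Its part in the result was not tested. The neutrophil markers, 12 of 12 measured, all had means below the median gene, with summed linear levels of 229 to 250 in DMSO, 238 to 290 at 10 µM and 246 to 280 at 100 µM, highest in array 23.

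A2m encodes alpha-2-macroglobulin, a protease trap of plasma and a classical strong acute phase protein of the rat. On the DMSO arrays its log2 levels were 11.15, 11.33, 10.61, 11.06 and 9.56. At 10 µM they ran from 10.96 to 11.35 with a median of 11.18, and at 100 µM they were 11.06, 11.26, 10.94 and 10.91. The flutamide arrays lie in or just above the upper part of the DMSO range, and array 22 (DMSO) lies far below all others. The SD was 0.71 in DMSO, 0.17 at 10 µM and 0.16 at 100 µM.

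A2m was 0.38 log2 units higher at 10 µM (SE 0.21, 95% interval -0.07 to 0.83, limma adjusted p = 0.716) and 0.26 higher at 100 µM (SE 0.23, limma adjusted p = 0.859). Without array 22 these differences were 0.13 and 0.0048. In run 1, A2m differed from DMSO by 0.05 at 10 µM and by -0.08 at 100 µM. In run 2, which holds array 22, it differed by 0.63 and 0.52. A2m was lower in run 2 than in run 1 by estimate, at -0.44 (SE 0.18, limma adjusted p = 0.381), and at -0.29 without array 22 (SE 0.08). Its highest array of run 2 (11.19) lay below the median array of run 1 (11.26).

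Hp encodes haptoglobin, which binds free haemoglobin so that macrophages can clear it through Cd163. Its DMSO arrays had log2 levels of 12.13, 12.18, 11.78, 11.81 and 12.10. At 10 µM the levels were 12.17, 12.33 and 12.30 in run 1 and 12.44, 12.09 and 12.14 in run 2, and at 100 µM they were 12.07, 12.19, 12.07 and 12.00. Of the 6 arrays at 10 µM, 3 lay above the highest DMSO array, and none lay below the lowest.

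Hp was 0.23 log2 units higher at 10 µM (SE 0.09, 95% interval 0.05 to 0.42), or 1.17-fold, with an unadjusted p of 0.0181 and a limma adjusted p of 0.527. This was the lowest p among the 9 genes at this dose, and 490th of all genes by p. Without array 23 the difference was 0.17 (95% interval 0.01 to 0.33), and it was above 0 in both runs, at 0.11 in run 1 and 0.33 in run 2. At 100 µM it was 0.07 (SE 0.10, limma adjusted p = 0.915), and it was 0.03 without array 20, 0.04 without array 21 and 0.11 without array 22.

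Hpx encodes hemopexin, the plasma carrier that returns free haem to the liver, and had the narrowest range of the 9 over all 15 arrays. Its log2 levels were 12.29, 12.30, 12.26, 12.30 and 12.60 with DMSO, with array 22 highest. They ran from 12.21 to 12.52 at 10 µM, with a median of 12.30, and were 12.31, 12.43, 12.31 and 12.28 at 100 µM. The differences from DMSO were -0.01 at 10 µM (95% interval -0.18 to 0.16) and -0.02 at 100 µM (95% interval -0.21 to 0.17). As a fold, the 10 µM interval runs from 0.880 to 1.12.

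Cp encodes ceruloplasmin, the copper-carrying ferroxidase of plasma. It had log2 levels of 11.04, 11.26, 11.07, 11.02 and 11.31 with DMSO, and of 10.84, 11.37, 11.15 and 10.92 at 100 µM. At 10 µM it was 11.10, 11.25 and 11.32 in run 1 and 12.14, 10.84 and 11.00 in run 2. Array 23 alone stands above an otherwise even set. Cp was 0.14 higher at 10 µM (SE 0.19, limma adjusted p = 0.932), and the difference was -0.07 without array 23. Without array 24 the 10 µM value was 0.24. At 100 µM it was -0.07 (SE 0.21, limma adjusted p = 0.971), and from -0.17 without array 16 to 0.0095 without array 15.

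Orm1 encodes alpha-1-acid glycoprotein, a plasma carrier of basic and steroid-like drugs. Its log2 levels were 12.80, 12.83, 12.56, 12.63 and 12.82 with DMSO, ran from 12.71 to 13.00 at 10 µM with a median of 12.78, and were 12.87, 12.83, 12.67 and 12.76 at 100 µM. The groups overlap nearly throughout. It differed from DMSO by 0.07 at 10 µM (95% interval -0.09 to 0.23, limma adjusted p = 0.891) and by 0.05 at 100 µM (95% interval -0.13 to 0.23, limma adjusted p = 0.933). The 10 µM value was 0.02 without array 23 and 0.04 without array 20, and the 100 µM value ran from 0.02 without array 20 to 0.08 without array 22.

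Crp encodes C-reactive protein, a pentraxin that binds phosphocholine on damaged cells and microbes. In run 1 its log2 levels were 8.07 and 8.01 with DMSO, 7.58, 8.04 and 7.99 at 10 µM, and 7.85 and 7.95 at 100 µM. In run 2 they were 7.68, 7.84 and 7.76 with DMSO, 8.62, 8.11 and 7.92 at 10 µM, and 7.76 and 7.60 at 100 µM. The 10 µM arrays of run 2 all lay above the DMSO arrays of run 2, and in run 1 they did not. The 10 µM difference was 0.17 over both runs (SE 0.15, limma adjusted p = 0.853), -0.17 in run 1 and 0.46 in run 2. The test of that difference between runs gave 0.63 (SE 0.25, unadjusted p 0.0277, limma adjusted p = 0.438), and 0.43 without array 23. Without that array the 10 µM difference over both runs was 0.03. At 100 µM Crp differed from DMSO by -0.08 (SE 0.16, limma adjusted p = 0.949). This value was -0.0070 without array 27, -0.02 without array 10, -0.04 without array 11, and -0.13 without array 16 or array 20.

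Itih4 encodes the inter-alpha-trypsin inhibitor heavy chain 4, a plasma glycoprotein cleaved by kallikrein. Its log2 levels were 9.86 and 10.29 with DMSO in run 1 and 10.26, 10.54 and 10.42 in run 2. At 10 µM they were 10.47, 10.39 and 10.25 in run 1 and 10.91, 10.64 and 10.45 in run 2, and at 100 µM they were 10.35, 10.42, 10.45 and 10.42. Array 10 (DMSO) is lowest and array 23 highest. Itih4 was 0.27 higher at 10 µM (SE 0.10, 95% interval 0.05 to 0.49), or 1.20-fold, with an unadjusted p of 0.0208 and a limma adjusted p of 0.540. The difference was 0.29 in run 1, or 0.08 without array 10, and 0.26 in run 2, or 0.14 without array 23. Over both runs it was 0.21 without array 23 (95% interval -0.0028 to 0.41). At 100 µM it was 0.16 (SE 0.11, limma adjusted p = 0.818), and 0.07 without array 10.

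**Figure D2:**
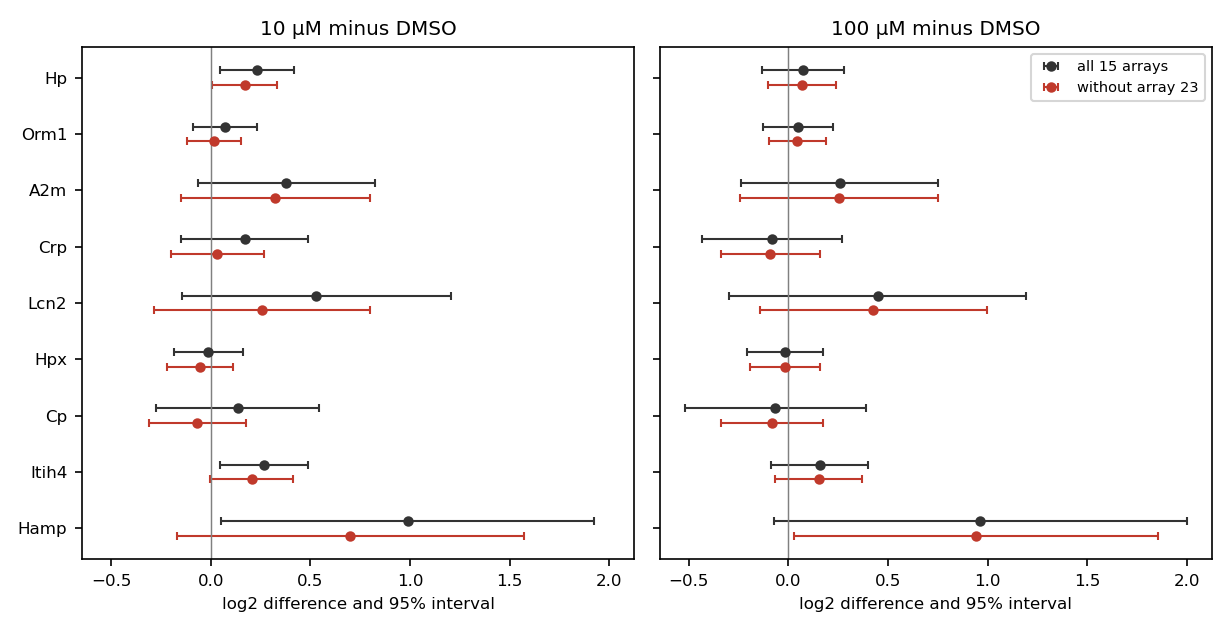
Log2 differences of the 9 acute phase genes from DMSO (horizontal axes) with limma's 95% intervals, at 10 µM (left) and 100 µM (right). Black points use all 15 arrays and red points leave out array 23. At 10 µM the black intervals of Hp, Itih4 and Hamp lie above 0, and without array 23 that of Hp does. At 100 µM the interval of Hamp without array 23 lies above 0. None of the differences passed the adjusted threshold.

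Flutamide at 10 µM was set beside DMSO for all 9 genes together. By estimate 8 were higher and Hpx alone was lower, with a median difference of 0.23 log2 units against -0.0027 over all genes, of which 49.1% were higher. Of the 9 genes, 3 had an unadjusted p under 0.05 (Hp, Itih4 and Hamp) against 7.65% of all genes. None had an adjusted p under 0.05 by limma, where 0% of all genes did. Without array 23, 7 of 9 were higher, against 46.4% of all genes, and the median was 0.17 against -0.01. Then 1 of 9 had an unadjusted p under 0.05, a share near the 8.49% of all genes. In none did the 6 arrays at 10 µM stand clear of the 5 DMSO arrays, as they did for 0.634% of genes.

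At 100 µM, 6 of the 9 genes were higher than DMSO by estimate, against 55.7% of all genes, with a median difference of 0.07 against 0.02. This median was 0.03 without array 20 and 0.04 without array 21. Crp, Hpx and Cp were lower, each by less than 0.1. None of the 9 had an adjusted p under 0.05 by limma, as for 0% of all genes, and none had an unadjusted p under 0.05, against 6.85% of all genes. The groups overlapped for all 9, while 2.06% of genes had groups that did not. Both doses are compared with the same DMSO arrays, so the values of arrays 21 and 22 enter both.

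Set directly against each other, 100 µM lay below 10 µM for all 9 genes by estimate, while 56.5% of all genes lay higher at 100 µM. Related lists shared this direction. Lower at 100 µM were 19 of 20 other positive acute phase genes (median -0.14) and 8 of 8 negative ones (median -0.17). So were 16 of 18 hepatocyte markers (median -0.15). Array 23, a 10 µM array, held the highest level for 13 of these 20, 4 of these 8 and 9 of these 18 genes. The counts of the lists were not recomputed without it. For the 9 acute phase genes they were: without array 23, 4 of the 9 were higher at 100 µM, against 55.8% of all genes. The median over the 9 was -0.11 with that array and -0.01 without it. The lowest p belonged to Hp, at -0.16 (SE 0.09, limma adjusted p = 0.930). Crp differed by -0.25 (SE 0.16, limma adjusted p = 0.930) and Hamp by -0.03 (95% interval -1.02 to 0.97). Without array 23 these 3 values were -0.10, -0.12 and 0.24. No gene of the 9 had an adjusted p under 0.05 by limma (0% of all genes) or an unadjusted p under 0.05 (4.98% of all genes).

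**Figure D3:**
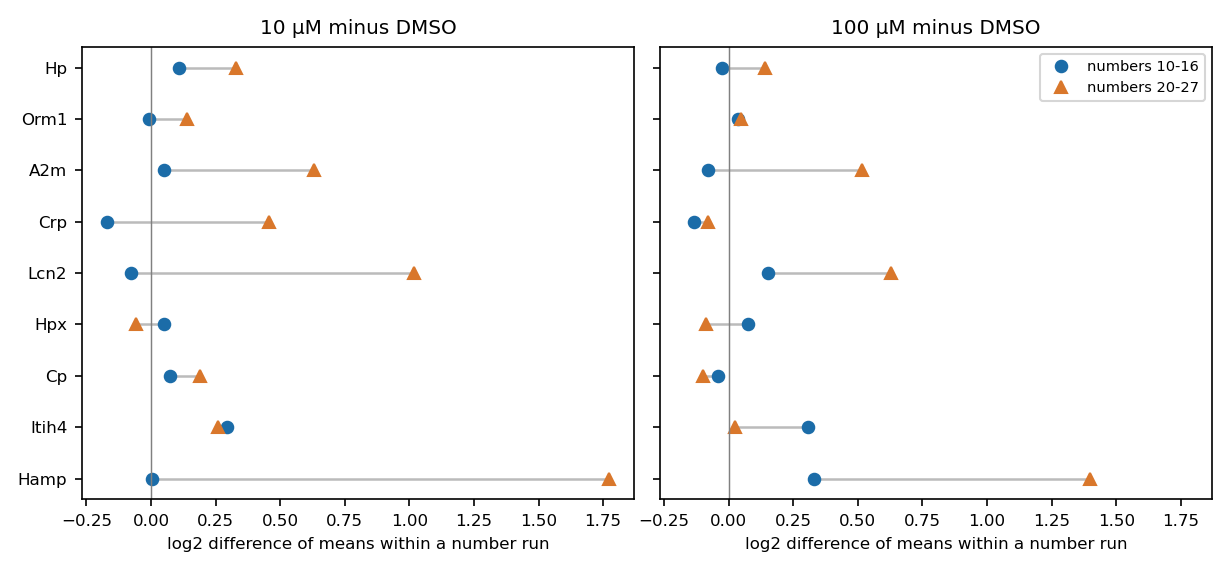
Differences of group means from DMSO within run 1 (circles, title numbers 10 to 16) and run 2 (triangles, 20 to 27) for each of the 9 genes, on the log2 scale, at 10 µM (left) and 100 µM (right). Grey lines join both runs. At 10 µM the widest lines are those of Hamp (0.0038 and 1.77) and Lcn2 (-0.08 and 1.02).

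The runs were compared because both hold all 3 groups. Hamp and Itih4 were higher and A2m lower in run 2 at an unadjusted p under 0.05, which is 3 of 9 genes against 11% of all genes. Itih4 differed by 0.24 (SE 0.09, limma adjusted p = 0.311). None of the 9 passed the adjusted threshold, while 79 genes (0.545%) did. The other 6 members differed between runs by less than 0.13 in size. Without array 23, 5 of the 9 had an unadjusted p under 0.05, against 11.3% of all genes, as Hp (-0.17) and Orm1 (-0.12) joined, and 129 genes passed the adjusted threshold. The response to 10 µM differed between runs for 6 genes (0.0414%) and the response to 100 µM for 1 gene (0.00689%) at an adjusted p under 0.05 by limma, and no acute phase gene was among them. At an unadjusted p under 0.05 there were 2 of the 9 at 10 µM, Crp and Hamp (10.2% of all genes), and 0 at 100 µM (6.08%).

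Within single runs some groups stood clear of each other. In run 2 the 10 µM arrays all lay above DMSO for Crp and Hamp, 2 of 9 genes against 7.79% of all genes. The 100 µM arrays of run 2 all lay above DMSO for Hamp, 1 of 9 against 14.8%. In run 1 the 100 µM arrays lay above DMSO for Orm1, Hpx and Itih4, 3 of 9 against 18.5%, and below it for Crp, 1 of 9 against 12.1%. Below 10 µM in run 2 lay the 100 µM arrays for Hp, A2m, Crp and Itih4, 4 of 9 against 7.22%. In the remaining 7 of the 12 combinations of run, pair of groups and direction, none of the 9 genes stood clear, against 7.67% to 14.4% of all genes.

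Array 23 was high across most of the acute phase genes. It was the highest of the 15 arrays for 7 of the 9 genes, where 18.8% of all genes had their highest value in it. The exceptions were A2m, in which it ranked 5th, and Hpx, in which it ranked 2nd. Array 23 was also the highest for 13 of 20 other positive and 4 of 8 negative acute phase genes. Among the hepatocyte markers it was the highest for 9 of 18, so the trait was not particular to the 9 genes. Above the median of the other 10 µM arrays it lay by 1.96 log2 units for Hamp, 1.57 for Lcn2, 1.05 for Cp, 0.63 for Crp and 0.46 for Itih4. For Hp, Orm1 and Hpx it lay higher by 0.28, 0.26 and 0.23, and for A2m by 0.01.

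**Figure D4:**
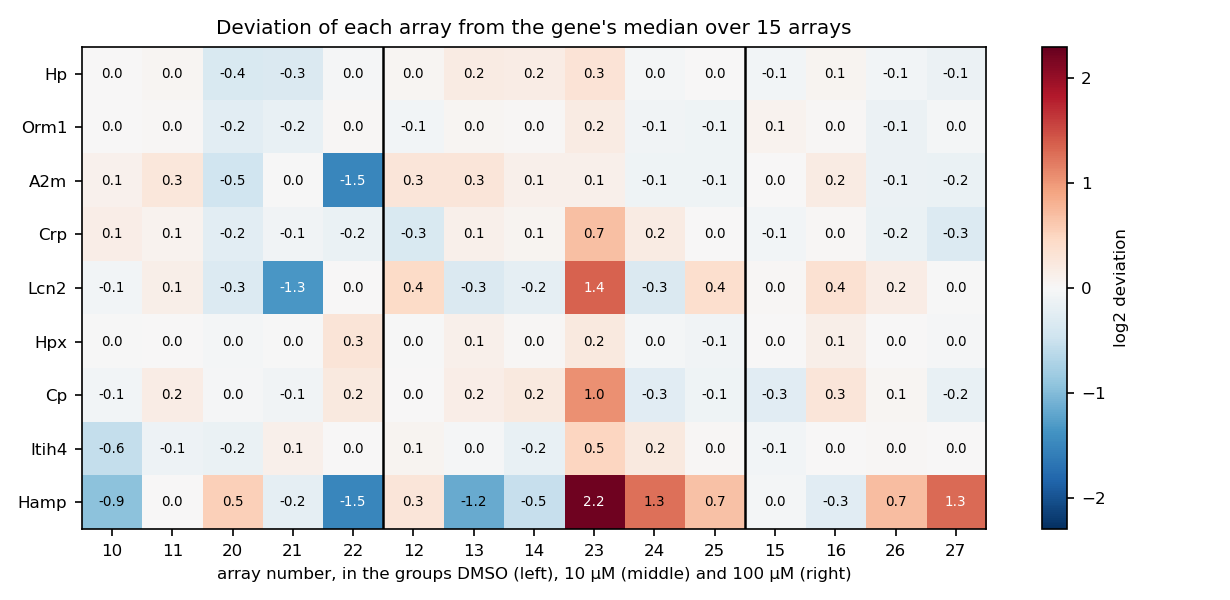
Deviation of each array (columns, by title number within its group) from the gene's median over the 15 arrays (rows, 9 acute phase genes), in log2 units, red above and blue below. Array 23 is red or pale red in all rows, array 22 is blue for A2m and Hamp, and array 21 is blue for Lcn2.

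Macrophage markers were also highest in array 23. Of 22 Kupffer cell and macrophage markers 20 were measured, 9 of them with means below the median gene, and 14 of the 20 had their highest value in that array. The summed linear level of the 20 markers was 4814 in array 23, against 2141 to 3238 on the other 10 µM arrays, 1984 to 3508 with DMSO and 1985 to 3352 at 100 µM. Marco, a scavenger receptor of Kupffer cells, was at 7.51 log2 units in array 23 and at 5.10 to 6.83 elsewhere. Endothelial markers (6 of 10 measured, all with means below the median gene) summed to 316 in array 23 and to 133 to 206 elsewhere, and the hepatocyte markers summed to 47777 there and to 36021 to 42507 elsewhere. Stellate cell and fibroblast markers (12 of 12 measured) summed to 691 in array 23 and to 563 to 642 elsewhere. Cholangiocyte (6 of 8 measured), lymphocyte (10 of 12) and red blood cell markers (5 of 8) summed in array 23 to 409, 365 and 265, inside the ranges of the other arrays, which were 401 to 610, 324 to 422 and 123 to 341. The part of these cells in the levels of array 23 was not tested.

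Array 22 (DMSO) stood apart in another way. It was the lowest of the 15 arrays for A2m and Hamp, 2 of 9 genes where 6.08% of all genes had their lowest value in it, and the highest for Hpx, 1 of 9 against 5.07%. It differed from the median of the other DMSO arrays by -1.55 for A2m and by -1.40 for Hamp. Its macrophage marker sum, at 1984, was the lowest of the 15 arrays, with a 100 µM array next at 1985. These markers lay at a median of -0.36 from the other DMSO arrays. Their part in the levels of array 22 was not tested.

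The 9 genes varied together only in part. Across the 15 arrays 36 pairs were correlated, 32 with r above 0, and without array 23 the number above 0 was 22. The permutations ignored group and run, so their p-values do not set aside shifts that a pair shares by group or run. Hp and Orm1 had the highest r, 0.84 (permutation p = 0.00014, Benjamini-Hochberg adjusted 0.00504), with a Spearman rho of 0.69 (permutation p = 0.00521, adjusted 0.0447). Without arrays 20 and 21, the pair farthest from the median of Hp, r was 0.69, and without array 23 it was 0.78. Within run 1 it was 0.04 and within run 2 0.91, so the relation was not seen within run 1. Hpx and Cp had r = 0.70 (permutation p = 0.00959, adjusted 0.0586) and rho = 0.79 (permutation p = 0.00076, adjusted 0.0274). Their r was 0.67 without arrays 22 and 23, 0.56 within run 1 and 0.72 within run 2. By Pearson's r 1 pair passed an adjusted p under 0.05 and by Spearman's rho 5 did. Hamp had its highest r with Itih4, 0.64 (permutation p = 0.0106, adjusted 0.0586), with rho = 0.52 (permutation p = 0.0486, adjusted 0.212). That r was 0.33 without arrays 10 and 23, 0.51 within run 1 and 0.56 within run 2, or 0.16 there without array 23. With the other 7 genes the r of Hamp ran from -0.27 (Hpx) to 0.46 (Lcn2), and without array 23 from -0.73 (Hpx) to 0.22 (A2m).

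Outside the 9 genes, the most similar patterns were sought over the 14 arrays without array 23. For Orm1 they were Fth1, the ferritin heavy chain (r = 0.92, and 0.85 over all 15 arrays), Alb, albumin (0.89 and 0.88), and Hoxb7 (0.88 and 0.81). For Hp they were Rarres2, which encodes the chemokine chemerin (0.89 and 0.82), Olfml3 (0.86 and 0.84) and Cdc42 (0.86 and 0.53). For Hamp they were Plcb3 (0.87 and 0.44), Vcf1 (0.84 and 0.79) and Tmem199 (0.82 and 0.76). For Lcn2 the nearest was Fam117b, at 0.87, and with array 23 its r was -0.14, followed by Rgsl2h (0.85 and 0.86) and Cldn8 (0.81 and 0.64). For A2m they were Fezf1 (0.92 and 0.90), Msmo1, an enzyme of cholesterol synthesis (0.90 and 0.58), and Nudt12 (0.89 and 0.47). For Crp they were St8sia2 (0.89 and 0.87), Zer1 (0.80 and 0.50) and Popdc2 (0.80 and 0.45). For Hpx they were Khdrbs3 (0.91 and 0.84), Brdt (0.86 and 0.81) and Tspan8 (0.84 and 0.69). For Cp they were Klf12 (0.90 and 0.16), Dnajc10 (0.88 and -0.45) and the arginine transporter gene Slc7a2 (0.85 and 0.86). For Itih4 they were Zbtb9 (0.90 and 0.93), Rasd1 (0.86 and 0.76) and the major urinary protein gene Mup5 (0.81 and 0.80). These are the largest of many r values over few arrays and are given as a description.

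Other positive acute phase genes, among them fibrinogen chains, complement C3 and Lbp, were counted next to the members. Of 22 listed, 20 were measured. At 10 µM 15 of 20 were higher than DMSO by estimate with a median of 0.07, and at 100 µM 4 of 20 with a median of -0.05, against 49.1% and 55.7% of all genes. Array 23, a 10 µM array, was the highest for 13 of the 20, and these counts were not recomputed without it. None passed the adjusted threshold at either dose by limma, and 2 and 0 had an unadjusted p under 0.05, against 7.65% and 6.85% of all genes, so the 10 µM count is near that share. Agt, angiotensinogen, had the lowest p at 10 µM, at 0.58 (SE 0.18, limma adjusted p = 0.447), and its highest level in array 23 (11.32). Its 10 µM difference, tested between runs, gave 0.93 for run 2 over run 1 (SE 0.29, limma adjusted p = 0.342). Steap4, a metalloreductase of the iron and copper cycle, passed the threshold between runs: it fell by 1.39 log2 units from run 1 to run 2 (SE 0.24, limma adjusted p = 0.0214).

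Negative acute phase genes, whose transcripts are known to fall in inflammation, were mostly higher with flutamide by estimate. Of 9 listed, 8 were measured, and 7 of 8 were higher at 10 µM by estimate (median 0.26) and 6 of 8 at 100 µM (median 0.11), against 49.1% and 55.7% of all genes. The 10 µM array 23 was the highest for 4 of the 8, and these counts were not recomputed without it. At 10 µM 5 of the 8 had an unadjusted p under 0.05 (7.65% of all genes), and 2 at 100 µM (6.85%), and none passed limma's adjusted threshold. The lowest p was that of Serpina6, the corticosteroid-binding globulin, which lay 1.25 higher at 10 µM (SE 0.27, limma adjusted p = 0.285) and 0.85 higher at 100 µM (SE 0.29, limma adjusted p = 0.663). Fetub, fetuin-B, passed the threshold between runs, higher in run 2 by 0.26 (SE 0.05, limma adjusted p = 0.0374).

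In the cytokine pathway no gene passed the adjusted threshold of limma for dose, and 1 of 28 at 10 µM and 3 of 28 at 100 µM had an unadjusted p under 0.05, against 7.65% and 6.85% of all genes. Of 30 listed ligands, receptors and signalling genes 28 were measured, with 11 higher at 10 µM (median -0.05) and 10 higher at 100 µM (median -0.10). Over all genes 49.1% and 55.7% were higher. Osmr, the oncostatin M receptor, had the lowest p at both doses, at -0.68 for 10 µM (SE 0.17, limma adjusted p = 0.350) and -0.53 for 100 µM (SE 0.19, limma adjusted p = 0.670). Its 10 µM difference, tested between runs, gave -0.83 for run 2 over run 1 (SE 0.26, limma adjusted p = 0.342). Il6 itself was dim, at 3.0 to 3.83 over the 15 arrays. In array 23, 6 of the 28 genes had their highest level, against 18.8% of all genes. Among them was Il6r, the interleukin-6 receptor, at 7.73 there and at 5.79 to 6.70 on the other arrays. Socs3, a feedback inhibitor induced by interleukin-6, spanned 5.74 to 6.04 and was at 5.94 in array 23. Tnfrsf1a, the tumour necrosis factor receptor, passed the threshold between runs, higher in run 2 by 0.56 (SE 0.11, limma adjusted p = 0.0352).

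Of 10 transcription factors of the acute phase promoters 9 were measured, and 8 of 9 were lower than DMSO by estimate at each dose. Their medians were -0.09 and -0.20. Thus 1 of 9 was higher at each dose, against 49.1% of all genes at 10 µM and 55.7% at 100 µM. None passed limma's adjusted threshold, and 2 at 10 µM and 1 at 100 µM had an unadjusted p under 0.05 (7.65% and 6.85% of all genes). Stat3 is in both this list and the cytokine list. Hnf4a, the hepatocyte nuclear factor that maintains liver genes, had the lowest p at 10 µM, at -0.62 (SE 0.20, limma adjusted p = 0.439). The test of this difference between runs gave -1.16 for run 2 over run 1 (SE 0.26, limma adjusted p = 0.208). Onecut1 had the lowest p at 100 µM, at -0.37 (SE 0.15, limma adjusted p = 0.708). Among 23 of 23 measured genes of iron and hepcidin control, 10 were higher at 10 µM (median -0.01) and 9 at 100 µM (median -0.08). The shares over all genes were again 49.1% and 55.7%. None passed limma's adjusted threshold, and 1 of 23 at 10 µM and 5 of 23 at 100 µM had an unadjusted p under 0.05 (7.65% and 6.85% of all genes), so the 10 µM count is below the share over all genes. The zinc and iron importer Slc39a14 had the lowest p at 100 µM, at -0.77 (SE 0.23, limma adjusted p = 0.649), and Hfe at 10 µM, at -0.27 (SE 0.12, limma adjusted p = 0.630). In array 23, the array with the most Hamp, 4 of the 23 genes had their highest level, against 18.8% of all genes. Hjv, the hemojuvelin co-receptor for the signal that induces hepcidin, was lowest there, at 5.22 against 5.54 to 6.90 elsewhere. It is 1 gene of the 23, named after its values were seen, and its relation to Hamp was not tested.

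Haemoglobin and haem clearance genes were measured for 7 of 8, with 3 higher at 10 µM (median -0.04) and 1 higher at 100 µM (median -0.19). Over all genes 49.1% and 55.7% were higher. None passed limma's adjusted threshold, and 0 had an unadjusted p under 0.05 at either dose (7.65% and 6.85% of all genes). Hmox1, haem oxygenase 1, had the lowest p between runs, at 1.04 in run 2 over run 1 (SE 0.39, limma adjusted p = 0.324).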

How the data were processed

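Log2 expression levels of all 15 arrays were deposited by the authors in 1 table. RMA (background correction, quantile normalization and summary of probes) and Partek are named in the submitters' processing notes, without versions. RMA removes shifts shared by whole arrays, so a global change in RNA would not be seen. Arrays have no read depth, and their number limits the precision.

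Of 29214 probe sets, 15310 held 1 gene, and 15279 of these matched RefSeq genes of GRCr8, used for names. The 323 probe sets with several genes were left out, and 13904 were not used in all. For 527 genes the probe set of highest mean was kept, which left 14506 genes. The table held 0 columns of no sample.

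Groups were fitted on all 15 arrays with limma 3.58.1 (R 4.3.3, lmFit and eBayes), with number run as a term and 11 residual degrees of freedom, and p-values were Benjamini-Hochberg adjusted over 14506 genes. Run-specific responses used run-by-dose means (9 residual degrees of freedom). Correlations used 100000 permutations, two-sided, in Python 3.11.15. Summed marker levels are sums of 2 to the power of the log2 value. The fits were tested on simulated data. Of genes given a 2-fold difference in response between runs, the run-by-dose fit called 49.3% at 10 µM and 32.8% at 100 µM. For a 1.5-fold difference it called 11.9% and 5.97%, so differences of that size between runs could be missed. The simulated noise was independent and of equal spread on all arrays. More genes were also changed than the run-by-dose fit called in the real arrays. The shares called could therefore be lower in these data. No pair of arrays was identical.

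The 9 measured members, the 6 pathway lists and the markers were chosen with earlier results of these data known. All members were described. Of each list up to 3 genes past the adjusted threshold in a comparison could be named, otherwise the 1 of lowest p. This was done for some comparisons of each list and not for all. Levels of Agt, Il1b, Il6, Il6r, Socs3, Marco, Cd68 and Hjv were named after their values were seen. For each member, the 3 genes of highest r over 14 arrays were named. Alternatives were no run term, array weights, further quantile normalization, leaving out dim genes, mean probe sets, a mean-dependent prior, single runs, and leaving out each array.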

Additional observations from a re-analysis of the deposited data

Results flagged for a closer look

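A sample was singled out where its gap to the nearest array of its group was large for the range of that group (Dixon's test at the 95% level). In 27 such tests of a gene in a group, about 1.35 are expected by chance, and 2 were found. Hpx had its highest DMSO value in array 22, at 12.60, and the nearest DMSO array was at 12.30. Cp had its highest 10 µM value in array 23, at 12.14, and the nearest array at that dose was at 11.32. No response to flutamide was shown to differ between the runs for these genes.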

How the results depend on the processing

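No acute phase gene passed the adjusted threshold under any alternative tried, in any of the 6 comparisons. The alternatives gave 958 recomputed values, of genes and of the median over the members. Of these, 59 gene values turned direction, 38 of them on leaving out 1 array. The other 899 counted as kept. For a gene this meant only that the sign stayed and no call was gained or lost, whatever the size. The 10 µM difference of Hamp counted as kept under all 24 alternatives while running from 0.0038 to 1.77. For a median, kept meant a move of less than 0.301 log2 units, whatever its sign. That margin is wider than the 10 µM median of 0.23 itself, so the count of kept values is no measure of stable size. In the comparison between doses and the tests of response between runs, only named genes were counted. None of the turned values had passed the threshold before or after turning, and the cause was not tested. On leaving out 1 array, the 10 µM difference from DMSO ran from -0.053 to 0.051 for Hpx and from -0.067 to 0.24 for Cp, and the 100 µM difference from -0.049 to 0.047 for Hpx and from -0.17 to 0.0095 for Cp. The difference of 100 from 10 µM ran from -0.26 to 0.24 for Hamp. Run 2 over run 1 ran from -0.11 to 0.037 for Crp, -0.22 to 0.13 for Lcn2, -0.034 to 0.024 for Hpx and -0.13 to 0.096 for Cp.

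Within run 1 alone, the 10 µM difference was -0.0094 for Orm1, -0.17 for Crp, -0.077 for Lcn2 and 0.051 for Hpx. The 100 µM difference there was -0.025 for Hp, -0.080 for A2m and 0.075 for Hpx, and 100 over 10 µM was 0.035 for Crp and 0.33 for Hamp. With array weights, Cp at 10 µM was -0.0044, Hamp at 100 over 10 µM was 0.33, and run 2 over run 1 was -0.039 for Hpx and -0.13 for Cp. Quantile normalization once more gave run differences of 0.027 for Crp, 0.00055 for Lcn2 and -0.012 for Hpx. Without arrays 23 and 15 together, chosen after seeing the data, Cp was -0.080 at 10 µM and 0.021 at 100 µM, Hamp at 100 over 10 µM was 0.25, and run differences were -0.037 for Hpx and -0.20 for Cp. No paired analysis was possible because each array's title number is its own and pairs no arrays across groups. With 4 to 6 arrays a group, the 95% interval of the 10 µM difference of Hamp runs from 0.05 to 1.92 log2 units.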
